A study of Mus musculus with 16 samples.

Results

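The cells described here are the 251 of 4186 kept cells with the highest mean level of 8 genes, *Prss56*, *Pnliprp1*, *Pnliprp2*, *Tpsb2*, *Thbs2*, *Igf1*, *Ceacam10* and *Cd177*, over both libraries of organoids grown from AOM/DSS mouse colon tumours. The level of a gene in a cell was ln(1 + 10000 × UMIs of the gene / all UMIs of the cell), a UMI being 1 counted RNA molecule, and the top 6% of kept cells by the mean of the 8 levels were taken as members. The plus TAM library (genotype KMT9ko/ko) held 124 members among 1499 kept cells, and the minus TAM library (genotype KMT9wt/wt, the control) held 127 members among 2687. AOM/DSS is the usual name of the mouse model that pairs the carcinogen azoxymethane with the colitis agent dextran sodium sulfate. The organoids were at passage 14 in both groups. The labels neither spell out TAM nor say which recombinase or promoter drove the deletion, and a time of 5 days is given in the names of the matrices alone. Each group was 1 library, split over 8 records, so no difference between the groups has a replicate check, no test across samples was possible, and the knockout, the TAM treatment and the library cannot be told apart. The intervals in brackets are exact 95% intervals that cover counting error only.

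The members were chosen by the measured levels of the 8 genes, so these levels describe the choice. The lowest score of a member was 0.142 and the highest score of another kept cell was 0.141, while 81.8% of kept cells had a score of 0. The upper end reached 2.29. There were 51 members with a score up to 0.2, and 53 other kept cells with a score of 0.1 or more. Below a depth of 4706 UMIs a single UMI of 1 rule gene sufficed, but only 4 plus TAM members and 1 minus TAM member had a single such UMI. The median member had 15.5 UMIs of the 8 genes in the plus TAM library and 9 in the minus TAM library.

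Pancreatic lipase splits dietary triglycerides in the gut and is made by acinar cells of the pancreas. *Pnliprp1* and *Pnliprp2* are its close relatives, of which *Pnliprp2* encodes an enzyme that also acts on galactolipids and phospholipids, while the product of *Pnliprp1* has little known lipase activity. *Prss56* encodes a secreted trypsin-like serine protease known for its part in eye growth, and *Tpsb2* encodes a tryptase stored in mast cell granules. *Thbs2* encodes thrombospondin-2, a matrix glycoprotein of connective tissue, and *Igf1* encodes insulin-like growth factor 1. *Ceacam10* belongs to the carcinoembryonic antigen family, and *Cd177* encodes a cell surface protein of the Ly6 and uPAR domain family that is best known from neutrophils. KMT9 is a histone H4 lysine methyltransferase made of the products of *N6amt1* and *Trmt112*.

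Among the rule genes 4 form neighbouring pairs in the genome, and the 250 bases before their annotated starts are shown because they are the promoter side of these pairs. *Pnliprp1* lies at 19:58728887-58744169 and *Pnliprp2* at 19:58759719-58777534, both on the plus strand with 15549 bases between them. *Cd177* lies at 7:24743983-24760311 on the minus strand and *Ceacam10* at 7:24777206-24784657 on the plus strand, so that their starts face each other across 16894 bases (GENCODE M21, mm10). The sequences are from RefSeq on GRCm38.p6, which lists 2 starts for *Ceacam10*, of which the first is shown. They read 5′ to 3′ on the strand of the gene, with any match of a searched motif in capitals.
Pnliprp1 (chr19:58728637-58728886, plus strand): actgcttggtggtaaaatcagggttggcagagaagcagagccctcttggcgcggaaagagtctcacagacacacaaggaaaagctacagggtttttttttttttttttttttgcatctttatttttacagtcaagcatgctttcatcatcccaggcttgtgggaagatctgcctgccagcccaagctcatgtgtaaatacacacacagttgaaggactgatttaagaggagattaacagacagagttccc
Pnliprp2 (chr19:58759473-58759722, plus strand): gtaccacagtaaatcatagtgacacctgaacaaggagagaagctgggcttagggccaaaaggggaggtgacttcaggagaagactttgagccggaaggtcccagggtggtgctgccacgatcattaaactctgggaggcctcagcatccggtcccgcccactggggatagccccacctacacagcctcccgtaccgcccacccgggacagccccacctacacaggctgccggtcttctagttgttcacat
Cd177 (chr7:24760312-24760561, minus strand): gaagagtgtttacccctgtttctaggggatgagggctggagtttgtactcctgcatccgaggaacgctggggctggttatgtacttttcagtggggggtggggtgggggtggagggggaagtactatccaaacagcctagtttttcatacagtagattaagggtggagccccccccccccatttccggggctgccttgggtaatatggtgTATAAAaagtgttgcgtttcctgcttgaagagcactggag
Ceacam10 (chr7:24776917-24777166, plus strand): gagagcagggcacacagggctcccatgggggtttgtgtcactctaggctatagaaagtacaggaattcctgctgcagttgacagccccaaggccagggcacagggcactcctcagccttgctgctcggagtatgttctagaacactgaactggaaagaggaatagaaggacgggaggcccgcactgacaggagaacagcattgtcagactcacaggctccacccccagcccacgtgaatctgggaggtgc
The letters TATAAA of the core promoter box of that name, CAGCTG, which is an E-box, and ATCAAAG, the TCF/LEF site of Wnt signalling, were searched on both strands, and no match overlapped another. *Cd177* had TATAAA from 40 to 35 bases before its start, and the windows of *Pnliprp1*, *Pnliprp2* and *Ceacam10* held none of the 3 in these letters. Over the same window of 27025 genes, 13.0% held TATAAA, 12.8% CAGCTG and 3.23% ATCAAAG. A match describes letters and not a bound site.

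Many plus TAM members carried a cell barcode that is also present in the minus TAM matrix. This held for 53 of 124 plus TAM members (42.7%) and 4 of 127 minus TAM members (3.15%), against 281 of the other kept plus TAM cells (20.4%) and 174 of the other kept minus TAM cells (6.80%). The copies of the 53 barcodes in the minus TAM matrix were all smaller, with a median of 592 UMIs against 21124, and none of them passed the cell filter. Of these copies 24 held a UMI of a rule gene, and in 18 the leading rule gene was the same as in the plus TAM member. Of the copies of the 281 other cells, 2 held such a UMI. The main counts and ratios are therefore given with all barcodes and without those found in both matrices.

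Members expressed epithelial genes and had a lower median depth than the rest. Their median depth was 19614.5 UMIs in the plus TAM library and 17000 in the minus TAM library, against 24908 and 25037 in the other kept cells. Their median mitochondrial share was 4.05% and 3.67%, against 2.76% and 2.86%. All 18 genes of the epithelial list were measured, and each had a UMI in members. They summed to 11916 CPM (counts per 1000000 summed counts) in plus TAM members and 11677 CPM in minus TAM members. In the other kept cells the sums were 19648 and 17643 CPM. The median log2 ratio of the list, members over other cells, was -0.40 in the plus TAM library and -0.36 in the minus TAM library. *Epcam* went the other way, with 1201 and 1127 CPM in members, against 935 and 891 CPM. The keratin genes *Krt19* and *Krt7* were the only 2 of the 18 that were 1.5-fold or more lower in both libraries, and none was higher; without the barcodes found in both matrices 4 were lower. *N6amt1*, which codes for the catalytic subunit of KMT9, had 10.2 CPM in plus TAM members and 38.6 CPM in minus TAM members, a log2 ratio of -1.92 (-2.60 to -1.28), and of -1.81 without the barcodes found in both matrices. In the other kept cells it had 5.75 CPM in the plus TAM library and 34.1 CPM in the minus TAM library.

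The label of the group, pancreatic lipase family and Prss56 cells, was borne out for a minority of members. *Prss56* had a UMI in 9 plus TAM members (7.26%) and 4 minus TAM members (3.15%), and *Pnliprp2* in 28 (22.6%) and 13 (10.2%). *Ceacam10* was the rule gene seen in most members, 72 (58.1%) in the plus TAM library and 100 (78.7%) in the minus TAM library. The cells are therefore called members, by their rule.

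Of the markers of cell types for which single rule genes are known, many had no UMI in members. The acinar, mast cell and neutrophil lists still summed higher in members of both libraries, and the fibroblast list in the minus TAM library. Of 22 pancreatic acinar genes, 12 had no UMI in any member, among them *Prss1*, *Cpa1*, *Ctrb1*, *Cel* and *Ptf1a*, and *Pnlip* itself had 1 UMI. The acinar list summed to 48.7 CPM in plus TAM members and 111 CPM in minus TAM members, against 25.4 and 44.1 CPM in other kept cells, and its 2 measured genes were *Cela1*, an elastase gene, and *Gp2*, a granule membrane glycoprotein gene. Both were called higher with all cells, and neither was without the barcodes found in both matrices. Of 14 mast cell genes none was measured at 10 CPM or more in members or other cells of both libraries, and 6 were at 0, including *Cpa3*, *Fcer1a* and *Mcpt4*. The mast cell list summed to 17.7 and 24.9 CPM in members, against 9.84 and 10.7 CPM in other kept cells.

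Of 13 neutrophil genes, 10 were at 0, *S100a8*, *S100a9*, *Mpo* and *Csf3r* among them. Their sum of 366 and 170 CPM in members, against 328 and 153 CPM, came almost wholly from *Ly6g*, with 364 CPM in plus TAM members and 169 CPM in minus TAM members, of which 1 member in each library held 70.3% and 78.5%. Members over other cells, the log2 ratio of *Ly6g* was 0.18 in the plus TAM library and 0.17 in the minus TAM library, and -1.57 and -2.05 with the top cell left out. Without the barcodes found in both matrices *Ly6g* had 59.6 CPM in plus TAM members and 178 CPM in minus TAM members, against 280 and 144 CPM. Of 14 fibroblast genes, 7 were at 0, *Col1a1*, *Col3a1* and *Dcn* among them, with a sum of 5.11 and 24.1 CPM in members against 6.09 and 4.62 CPM. Of 12 immune genes, 9 were at 0, *Ptprc* among them, with a sum of 5.50 and 5.23 CPM in members against 17.3 and 11.3 CPM. A count of 0 allows up to 1.18 CPM in the plus TAM members and 1.21 CPM in the minus TAM members.

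The share of members was larger in the plus TAM library. Members made up 8.27% (6.93% to 9.78%) of kept plus TAM cells and 4.73% (3.96% to 5.60%) of kept minus TAM cells, a log2 ratio of 0.81 (0.44 to 1.18). Without the barcodes found in both matrices the same members were 71 of 1165 plus TAM cells, 6.09% (4.79% to 7.63%), and 123 of 2509 minus TAM cells, 4.90% (4.09% to 5.82%), and these intervals overlapped. With the top 6% chosen anew without these barcodes, the shares were 7.55% in the plus TAM library and 5.26% in the minus TAM library. The log2 ratio was then 0.52 (0.12 to 0.92). Kept cells of 5000 or more UMIs, 1405 plus TAM and 2544 minus TAM cells, were also thinned to 5000 UMIs before scoring. Among them the shares were 10.2% in the plus TAM library and 3.62% in the minus TAM library. A larger number of such cells and more of this RNA per cell cannot be told apart in this share.

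**Figure D1:**
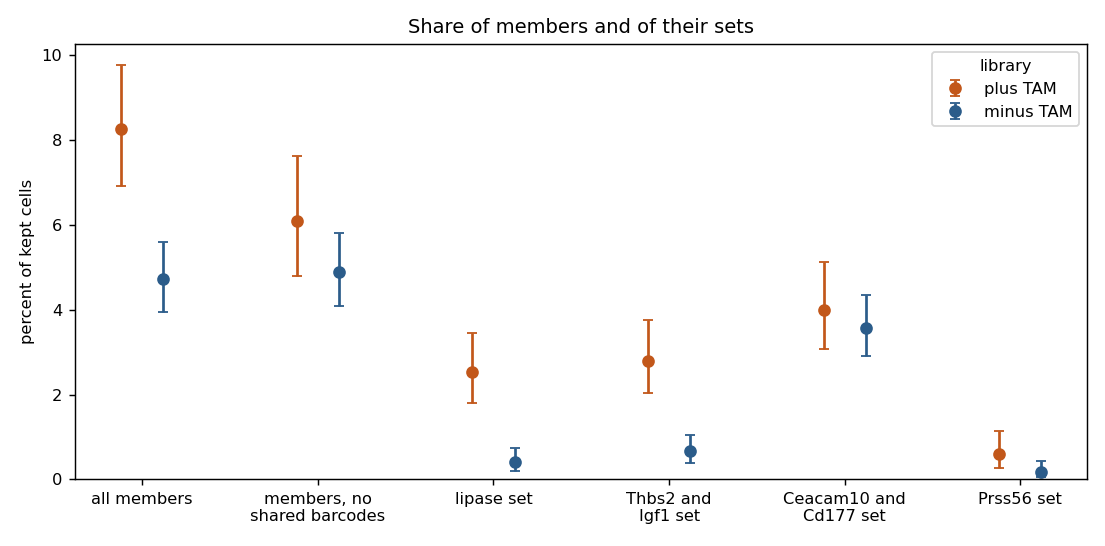
Share of kept cells (percent, with exact 95% binomial intervals) that were members, members without barcodes found in both matrices, and cells of each rule gene set, in the plus TAM library (orange) and the minus TAM library (blue). The plus TAM library lay above the minus TAM library for all members (8.27% and 4.73%), and the points of the *Ceacam10* and *Cd177* set lay close (4.003% and 3.57%).

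*Pnliprp1* had 320 CPM in plus TAM members and 45.9 CPM in minus TAM members, against 0.874 and 0.117 CPM in other kept cells. *Pnliprp2* had 484 and 214 CPM in members, against 1.38 and 0.205 CPM. Both genes sat in few cells: 1 plus TAM member held 60.6% of the *Pnliprp1* UMIs of its library, and 1 minus TAM member held 80.1% of the *Pnliprp2* UMIs of its library. The tryptase gene *Tpsb2* had 281 CPM in plus TAM members and 23.3 CPM in minus TAM members, against 0.705 and 0.175 CPM, and 1 plus TAM member held 59.9% of its UMIs there. That cell, which also held the most *Pnliprp1*, has a barcode found in both matrices. So has the minus TAM member that held 80.1% of the *Pnliprp2* UMIs. *Prss56* had 333 and 98.5 CPM in members, against 0.705 and 0.292 CPM, and the most in 1 cell was 232 UMIs in the plus TAM library and 131 in the minus TAM library. All 4 genes were higher in plus TAM than in minus TAM members in these sums.

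*Thbs2* had 277 CPM in plus TAM members and 105 CPM in minus TAM members, against 1.30 and 0.599 CPM in other kept cells, and *Igf1* had 118 and 47.1 CPM in members, against 0.451 and 0.117 CPM. These genes were spread over more cells, with *Thbs2* seen in 54 plus TAM and 27 minus TAM members. *Ceacam10* had 259 CPM in plus TAM members and 502 CPM in minus TAM members, against 2.85 and 1.96 CPM. *Cd177* had 142 and 321 CPM in members, against 1.61 and 1.55 CPM. These 2 were lower in plus TAM members than in minus TAM members, the opposite direction to the other 6 rule genes. Members were chosen on these genes, and over all kept cells *Ceacam10* had 20.03 CPM in the plus TAM library and 19.5 CPM in the minus TAM library, and *Cd177* 11.03 and 12.7 CPM. Without the barcodes found in both matrices the log2 ratio of plus over minus TAM members was -0.83 for *Ceacam10*, -1.01 for *Cd177*, 0.61 for *Thbs2*, 0.81 for *Igf1* and 3.31 for *Pnliprp2*. The *Pnliprp2* value thus leaves out the minus TAM member that held 80.1% of its UMIs in that library.

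**Figure D2:**
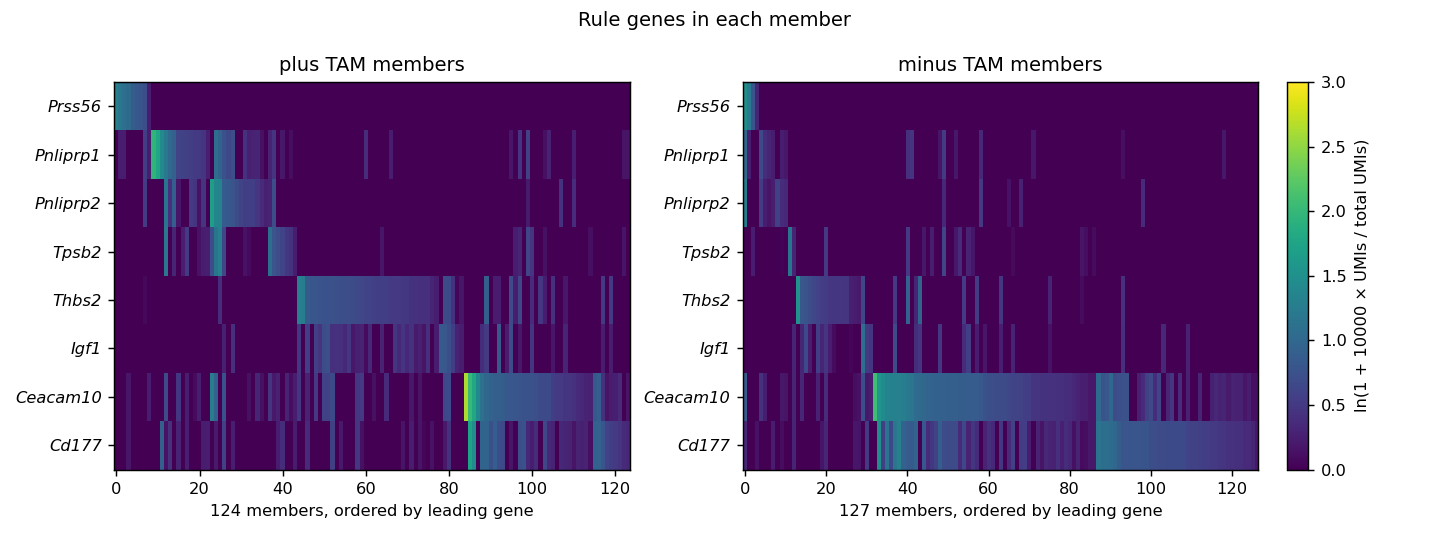
The 8 rule genes in each of the 124 plus TAM members and the 127 minus TAM members (columns), ordered by the leading gene of the cell. The colour is ln(1 + 10000 × level / total UMIs), where the level is already ln(1 + 10000 × UMIs / total UMIs). Depth and logarithm were thus applied 2 times, and the colours are not the levels that the colour bar names. The order of the genes within a cell is unchanged by this. *Thbs2* led in 34 plus TAM and 16 minus TAM members, and *Ceacam10* in 31 and 55. Of the members, 16 plus TAM and 19 minus TAM cells held a single rule gene, and 44 and 64 held 2.

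Some of the 8 genes varied together, and they were grouped into overlapping sets after their values were seen. *Pnliprp1* and *Pnliprp2* correlated over kept cells with r = 0.74 in the plus TAM library (n = 1499 cells) and 0.77 in the minus TAM library (n = 2687 cells), *Thbs2* and *Igf1* with 0.73 and 0.55, and *Ceacam10* and *Cd177* with 0.72 and 0.75. Cells of 1 library share its preparation and most hold no rule gene, so these r are descriptions. Many cells with 1 gene of a pair lacked the other. *Pnliprp2* was seen in 28 of 70 plus TAM and 9 of 25 minus TAM cells with *Pnliprp1*. *Cd177* was seen in 60 of 147 and 96 of 213 cells with *Ceacam10*, and *Igf1* in 42 of 92 and 18 of 60 cells with *Thbs2*. In the other direction, *Ceacam10* was seen in 60 of 102 and 96 of 189 cells with *Cd177*. *Thbs2* was seen in 42 of 57 and 18 of 35 cells with *Igf1*. *Tpsb2* had an r of 0.60 to *Pnliprp1* and 0.61 to *Pnliprp2* in the plus TAM library, and of 0.20 and 0.08 in the minus TAM library. *Prss56* had an r of 0.11 to *Pnliprp1* and 0.06 to *Pnliprp2* in the plus TAM library, and of 0.41 and 0.36 in the minus TAM library. These were -0.01 and -0.01 in the plus TAM library, and 0.48 and 0.48 in the minus TAM library, once the shared barcodes were left out. Few cells lie behind these r of *Prss56*. *Prss56* and *Pnliprp1* were seen together in 4 plus TAM and 2 minus TAM cells, and *Prss56* and *Pnliprp2* in 3 and 1.

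A lipase set, members with at least 2 of *Pnliprp1*, *Pnliprp2* and *Tpsb2*, held 32 plus TAM and 11 minus TAM members. A *Thbs2* and *Igf1* set, members with both, held 41 and 18, and a *Ceacam10* and *Cd177* set held 49 and 86. Members with 3 or more *Prss56* UMIs numbered 8 and 4, and 22 and 22 members were in no set. The *Thbs2* and *Igf1* set shared 17 of its 41 plus TAM and 8 of its 18 minus TAM members with the *Ceacam10* and *Cd177* set, of which they were 17 of 49 and 8 of 86. The lipase set shared 9 of its 32 and 5 of its 11 members with that set. The lipase set and the *Thbs2* and *Igf1* set had 1 plus TAM member and no minus TAM member in common.

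Over all kept cells that met the same conditions, the lipase set was 2.54% (1.80% to 3.46%) of plus TAM cells and 0.409% (0.205% to 0.731%) of minus TAM cells. The *Thbs2* and *Igf1* set was 2.80% (2.03% to 3.77%) and 0.670% (0.397% to 1.06%). The *Ceacam10* and *Cd177* set was 4.003% (3.07% to 5.12%) and 3.57% (2.90% to 4.35%), with overlapping intervals. Barcodes found in both matrices were 16 of the 32, 22 of the 41 and 20 of the 49 plus TAM members of these sets. Without such barcodes the shares were 1.63% in the plus TAM library and 0.359% in the minus TAM library for the lipase set, 1.63% and 0.717% for the *Thbs2* and *Igf1* set, and 3.18% and 3.67% for the *Ceacam10* and *Cd177* set.

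Among genes within 100000 bases of a rule gene, a few others had higher values in members. *Tpsg1*, which encodes a membrane-anchored tryptase, starts 175 bases beyond *Tpsb2* on the same strand (17:25369273-25374442). It had 27.1 CPM in plus TAM members and 4.83 CPM in minus TAM members, against 0.113 and 0.102 CPM in other kept cells. All 9 plus TAM members with a *Tpsg1* UMI also had *Tpsb2*, as did 2 of the 3 such minus TAM members. Members were chosen in part on *Tpsb2*, so this describes the choice. Of the other kept cells with *Tpsg1*, 0 of 4 plus TAM and 1 of 6 minus TAM cells had *Tpsb2*. *Dmrtc2*, near *Ceacam10*, had 7.07 and 24.5 CPM in members against 1.95 and 1.01 CPM, in 6 plus TAM and 4 minus TAM members. The abundant neighbours *Eif4e2* (185 and 202 CPM in members, against 188 and 196 CPM) and *Rps19* were within 1.5-fold of the other cells in both libraries.

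Outside the rule genes, members had high levels of some secretory and Wnt feedback genes and low levels of most cell cycle, squamous and fetal-like genes measured, while stem cell genes went both ways. A gene was called at 1.5-fold or more in the same direction in both libraries, a size threshold and not a test. Of 7657 genes with 10 CPM or more in members or in other cells, in each library, 738 (9.64%) were higher in members and 634 (8.28%) lower. Without the barcodes found in both matrices 667 of 7574 (8.81%) were higher and 614 (8.11%) lower, with 619 and 535 genes called both ways. Members were chosen among the same cells, so these contrasts describe them.

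*Reg4*, a secreted lectin gene of secretory crypt cells, had 339 CPM in plus TAM members and 441 CPM in minus TAM members, against 7.76 and 28.1 CPM in other kept cells. *Slc7a8*, an amino acid transporter, had 151 and 66.0 CPM against 9.87 and 2.21 CPM. It was seen in 92 plus TAM members (74.2%) and 45 minus TAM members (35.4%), against 10.2% and 3.01% of the other cells. *Spock2*, a matrix proteoglycan gene, had 58.5 and 78.0 CPM against 2.40 and 2.26 CPM, but 1 minus TAM member held 59.8% of the *Spock2* UMIs there.

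*Vim*, which encodes the intermediate filament vimentin, had 1887 CPM in plus TAM members and 1086 CPM in minus TAM members, against 224 and 131 CPM. It was seen in 91.9% and 86.6% of members and in 50.3% and 40.2% of other kept cells. Among cells of 5000 or more UMIs, thinned to 5000, the shares were 89.7% and 75.0% of members and 35.5% and 23.9% of the others. *Cdkn1c*, an inhibitor of cyclin-dependent kinases, had 322 and 273 CPM against 38.1 and 24.2 CPM. The metallothionein genes *Mt3* (2163 and 1112 CPM against 313 and 92.4 CPM) and *Mt4* (2638 and 1369 CPM against 388 and 94.9 CPM), whose products bind zinc and copper, were also higher. Other genes among the highest were *Ang4*, *Tnni1*, *Aoc1*, *Etv5*, *Bace2*, *Tmem64* and *Cpq*. All of these high genes but *Ang4* kept the call without the barcodes found in both matrices and with the top cell of each gene left out. *Ang4*, an antimicrobial ribonuclease gene, was seen in 1 plus TAM member, whose barcode is in both matrices, and in 10 minus TAM members.

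The 15 lowest genes kept the call in both of these settings. *Ly6a*, a marker of regenerating and fetal-like epithelium in mice, had 242 CPM in plus TAM members and 291 CPM in minus TAM members, against 1997 and 1805 CPM. *Krt4* and *Krt6a*, keratins of stratified epithelium, had 47.1 and 127 CPM against 439 and 837 CPM, and 5.89 and 3.22 CPM against 95.8 and 54.2 CPM. The mitotic kinase gene *Cdk1* had 3.53 and 18.9 CPM against 60.4 and 104 CPM, and *Ube2c*, which drives exit from mitosis, had 6.68 and 21.3 CPM against 125 and 186 CPM. The others were *Serpinb7*, *Tgm1*, *Anxa3*, *Fgfbp1*, *Birc5*, *Krt14*, *Anxa8*, *Ly6c1*, *Wnt7b* and *Ankrd1*.

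**Figure D3:**
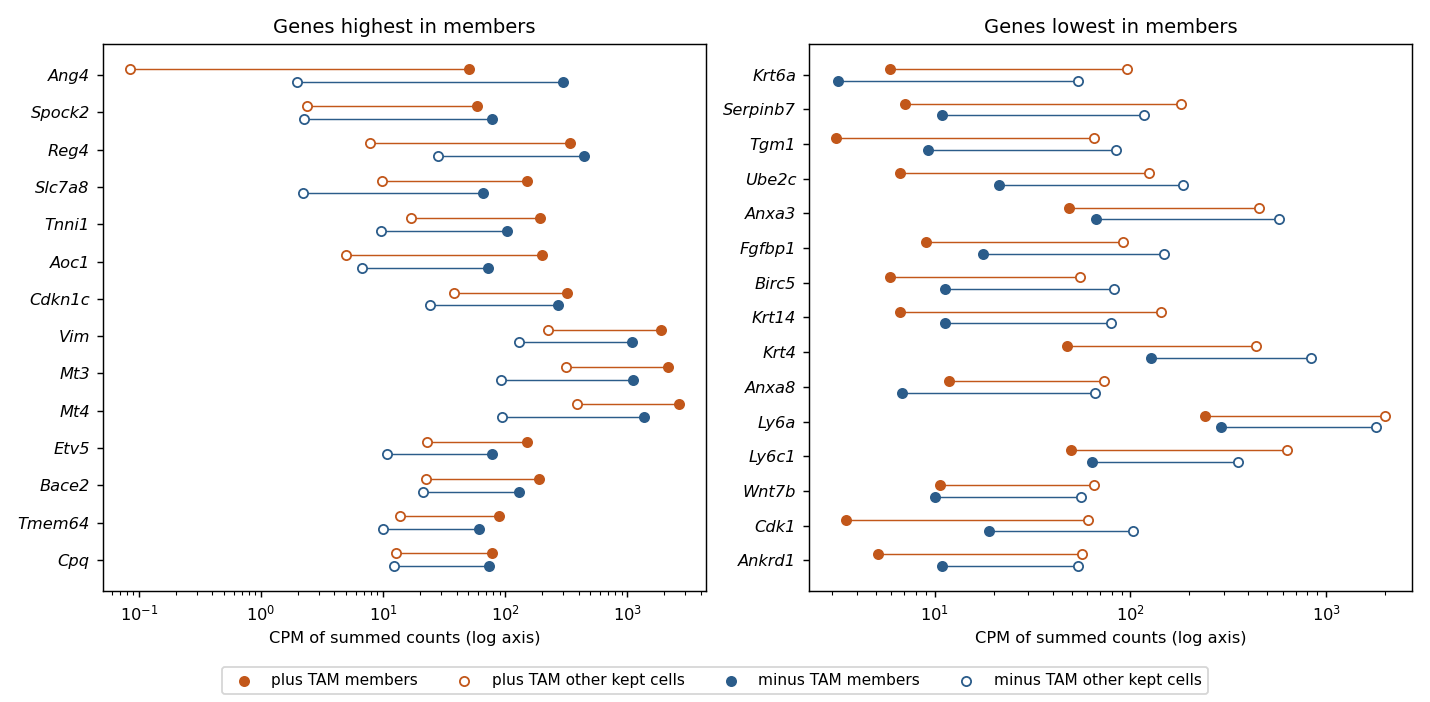
CPM of summed counts (log axis) of genes highest (left) and lowest (right) in members, for plus TAM members and other kept plus TAM cells (orange, filled and open) and minus TAM members and other kept minus TAM cells (blue, filled and open). In each gene shown the filled points of both libraries lie on the same side of the open ones, as for *Reg4* (339 and 441 CPM in members, against 7.76 and 28.1 CPM).

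Genes of the cell cycle were lower as a group. All 22 measured G2 and M phase genes were lower in members (8.28% of all genes were), with a median log2 ratio of -3.17 in the plus TAM library and -2.44 in the minus TAM library, against 0.06 and -0.04 over all genes. *Top2a*, which untangles DNA before division, had 4.32 CPM in plus TAM members and 13.7 CPM in minus TAM members, against 52.5 and 62.7 CPM. Of 23 measured S phase genes 20 were lower and none higher, with medians of -1.52 and -1.23. With such shared barcodes left out, 21 G2 and M phase genes and 17 S phase genes were lower. Of 23 measured ribosome biogenesis genes 9 were lower and none higher. *Ccnd1*, the cyclin D1 gene, had 97.8 and 123 CPM in members against 297 and 569 CPM.

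Wnt target genes were split. Of 16 measured, 8 were higher in members (9.64% of all genes were), 6 passed neither threshold and 2 were lower. Among the higher ones were the secreted or membrane-bound inhibitors of the pathway *Wif1* (1584 CPM in plus TAM members and 1220 CPM in minus TAM members, against 401 and 232 CPM), *Notum* (795 and 709 CPM against 251 and 230 CPM) and *Znrf3* (108 and 64.0 CPM against 44.4 and 31.0 CPM), and the intracellular inhibitor *Nkd1* (1792 and 1434 CPM against 636 and 555 CPM). *Ccnd1* and *Ascl2* were the 2 lower ones, and *Axin2*, another feedback gene, had 136 and 119 CPM in members, against 113 and 101 CPM. Among Wnt targets 5 were higher without the barcodes found in both matrices.

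Of 17 measured intestinal stem cell genes, 5 were higher (*Lgr5*, *Smoc2*, *Znrf3*, *Tnfrsf19* and *Ephb3*) and 3 lower (*Ascl2*, *Cd44* and *Slc12a2*), and 4, with *Lgr5* no longer among them, were higher and 3 lower without the barcodes found in both matrices. *Smoc2* had 319 and 473 CPM in members, against 90.8 and 144 CPM, and *Lgr5*, the receptor that marks crypt base stem cells, had 11 and 10.5 CPM, against 1.64 and 4.66 CPM. Of 18 measured fetal-like and YAP genes, 13 were lower and none higher, with medians of -1.57 and -1.50. Of 10 measured squamous genes 6 were lower and none higher. Over all genes 9.64% were higher in members and 8.28% lower. With the shared barcodes left out, 13 fetal-like and YAP genes and 7 squamous genes were lower.

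Secretory genes were higher in part, where 9.64% of all genes were higher in members and 8.28% lower. Of 8 measured Paneth-like and deep crypt secretory genes 5 were higher (*Ang4*, *Itln1*, *Reg4*, *Agr2* and *Tff3*) and none lower, and 3 were higher without the barcodes found in both matrices. *Muc2*, the main mucin of goblet cells, had 20.8 and 24.5 CPM in members, against 0.0846 and 0.0731 CPM, from 15 plus TAM and 7 minus TAM members. A single minus TAM member held most of its UMIs there. With the top cell left out its log2 ratio was 7.54 in the plus TAM library and 6.37 in the minus TAM library. Of 4 measured goblet genes 3 were higher with all cells and 1 without the barcodes found in both matrices. Of 20 measured endoplasmic reticulum chaperone genes, 4 were higher, *Xbp1*, *Dnajb9*, *Dnajb11* and *Dnajc3*, and none lower. *Pglyrp1*, which encodes a peptidoglycan recognition protein, had 4324 and 2116 CPM in members, against 1096 and 534 CPM. All 4 metallothionein genes measured, *Mt1*, *Mt2*, *Mt3* and *Mt4*, were higher, and of the 19 measured genes of the metallothionein and NRF2 list 6 were higher with all cells and 5 without the barcodes found in both matrices.

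**Figure D4:**
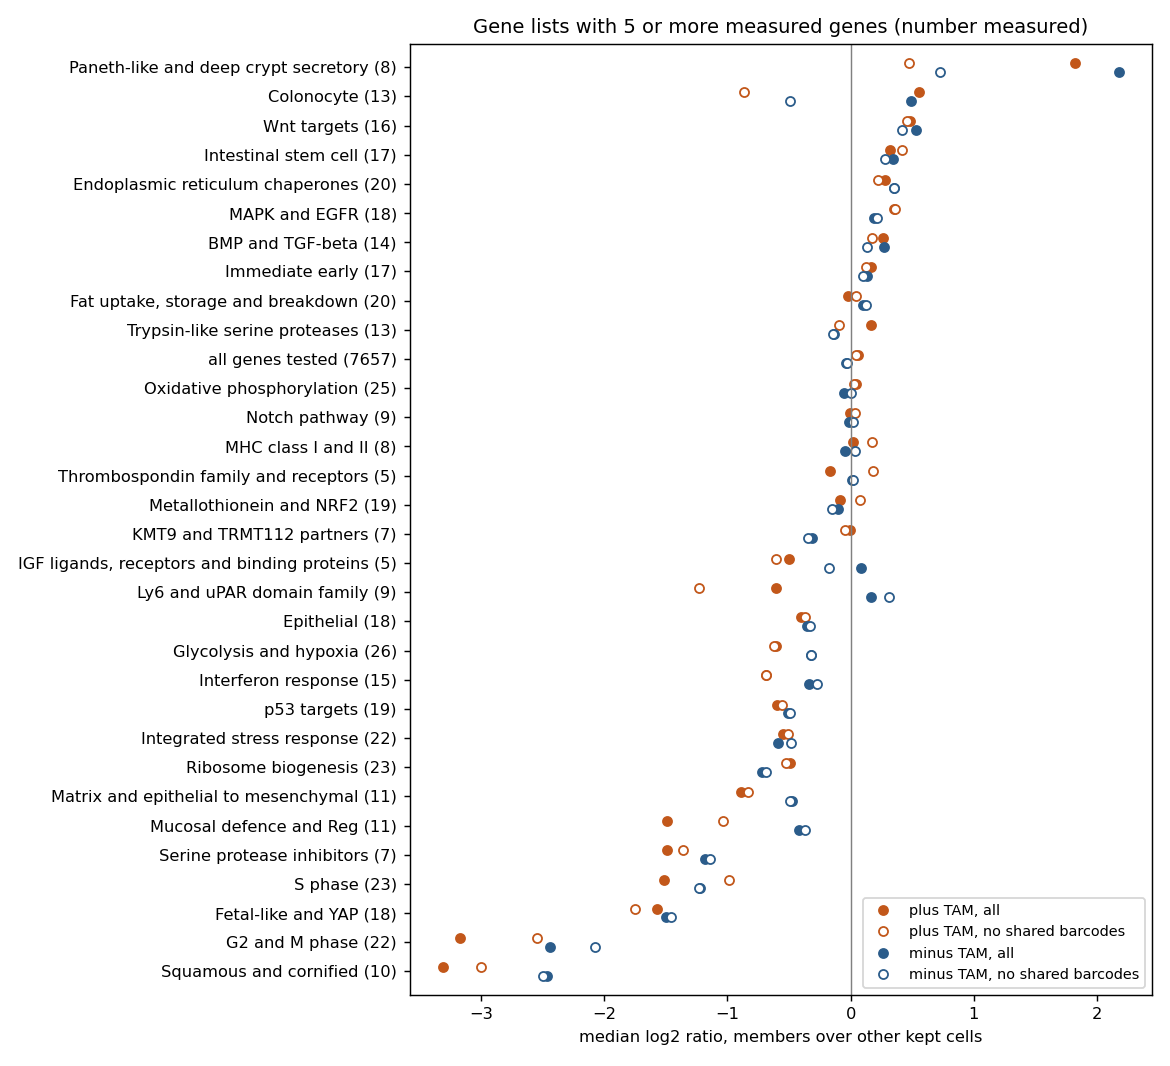
Median log2 ratio of members over other kept cells for each gene list with 5 or more measured genes (number measured with all cells in brackets), in the plus TAM library (orange) and the minus TAM library (blue), with all cells (filled) and without barcodes found in both matrices (open). The open points are medians over the genes measured without these barcodes, which can differ from the genes behind the filled points. G2 and M phase lies at -3.17 and -2.44, and the colonocyte list lies at 0.55 and 0.49 with all cells and at -0.87 and -0.49 without these barcodes.

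Among genes related to the rule genes some were higher in members and others lower. Over all genes 9.64% were higher and 8.28% lower. Of 19 other lipase family genes 2 were measured, and *Lmf1*, which matures secreted lipases, was higher with 49.9 and 45.9 CPM in members against 18.7 and 18.8 CPM. *Lipa*, the lysosomal acid lipase, had 17.3 and 10.9 CPM against 13.8 and 14.3 CPM. Of 20 measured genes of fat uptake, storage and breakdown, 4 were higher (*Acsl1*, *Acsl3*, *Acsl4* and *Cpt1a*) and 4 lower (*Scarb1*, *Dgat2*, *Acsl5* and *Pparg*), with 4 higher and 3 lower without the barcodes found in both matrices. Of 13 measured trypsin-like serine protease genes 4 were higher and 3 lower, with *Prss22* at 3.14 and 2.01 CPM in members, against 55.3 and 15.7 CPM.

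*Thbs1*, the thrombospondin-1 gene, was higher, with 181 CPM in plus TAM members and 162 CPM in minus TAM members, against 96.7 and 63.1 CPM. The IGF receptor gene *Igf1r* (25.1 and 14.9 CPM against 13.6 and 7.69 CPM) and its adaptor *Irs2* (14.9 and 13.3 CPM against 7.98 and 5.29 CPM) were higher, and *Stc2* was lower. After the shared barcodes were left out, *Irs2*, at 8.74 CPM in minus TAM members and 5.32 CPM in other minus TAM cells, no longer reached 10 CPM there and was not called. *Ceacam1*, the family member of surface epithelium, was lower with 55.4 and 50.7 CPM against 118 and 149 CPM. *Ceacam2* had 10.6 and 6.84 CPM in members, against 2.59 and 1.11 CPM.

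The sets differed in part in their leading genes and shared others. These genes are listed as descriptions because the sets were drawn from the same cells. The leading genes of the lipase set included *Spock2* (194 CPM in plus TAM and 511 CPM in minus TAM cells of the set, against 2.40 and 2.26 CPM in other kept cells), *Smpx*, *Slc7a8* and *Gdf11*. *Mt3* reached 5049 and 5322 CPM there, and *Mt4* 6038 and 7170 CPM. In this set 16 of 32 plus TAM and 2 of 11 minus TAM cells had a barcode found in both matrices. Of these 2 cells, 1 had 84395 UMIs, against a median of 17564 in the minus TAM members of the set. CPM values of the sets without such barcodes were not computed. The *Thbs2* and *Igf1* set was led by *Mobp* (58.5 and 66.2 CPM against 0.451 and 0.0731 CPM), *Pkd2l1*, a channel gene known from sour-sensing taste cells and spinal neurons, *Aoc1*, the diamine oxidase gene, and the transcription factor gene *Sox2*. *Aoc1* had 438 and 295 CPM there against 5.02 and 6.79 CPM, and was seen in 39 of 41 plus TAM and 15 of 18 minus TAM cells. *Otop1*, the proton channel of sour taste cells, had 270 and 196 CPM there against 24.8 and 20.8 CPM. It was also among the leading genes of the *Ceacam10* and *Cd177* set, with 176 and 117 CPM.

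The *Spock2* level was 1.04 CPM in plus TAM and 7.64 CPM in minus TAM cells of the *Thbs2* and *Igf1* set, and *Reg4* had 25.1 and 81.5 CPM in these cells, against 715 and 256 CPM in the lipase set. The *Ceacam10* and *Cd177* set had among its leading genes *Cdkn1c* (434 and 293 CPM against 38.1 and 24.2 CPM), *Tnni1* and *Vim*, genes that also stood high in the lipase set. The cells with 3 or more *Prss56* UMIs, 8 plus TAM and 4 minus TAM members, were led by *Gulo* (142 and 94.7 CPM against 2.82 and 2.21 CPM), and *Bmp2* had 643 and 272 CPM there against 61.1 and 13.0 CPM. *Spock2*, *Slc7a8* and *Gdf11*, named above for the lipase set, were also among the leading genes of these *Prss56* cells. *Slc7a8* was among those of the *Thbs2* and *Igf1* set as well. *Wif1* had 1712 and 1444 CPM in the lipase set, 1705 and 1900 CPM in the *Thbs2* and *Igf1* set and 1756 and 1261 CPM in the *Ceacam10* and *Cd177* set.

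Between plus TAM and minus TAM members, *Bmp2*, *Plat* and *Casp4* rose and replication, amino acid response and secretory genes fell in the plus TAM members. Of 8003 genes with 10 CPM or more in members of either library, 891 (11.1%) rose by 1.5-fold or more and 593 (7.41%) fell. Without the barcodes found in both matrices 888 of 7981 (11.1%) rose and 849 (10.6%) fell, and 613 and 476 genes were called both ways. In the other kept cells 628 of 7887 genes (7.96%) rose and 863 (10.9%) fell, and 530 of 7812 (6.78%) and 911 (11.7%) without these barcodes.

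*Bmp2*, which encodes a bone morphogenetic protein, had 204 CPM in plus TAM members and 51.9 CPM in minus TAM members, a log2 ratio of 1.97 (1.69 to 2.26), and 1.82 without the barcodes found in both matrices. It was seen in 89 of 124 plus TAM and 42 of 127 minus TAM members. *Plat*, the tissue plasminogen activator gene, had 430 and 122 CPM, a log2 ratio of 1.82 (1.64 to 2.01), and *Casp4*, an inflammatory caspase gene, had 55.0 and 14.1 CPM, a log2 ratio of 1.97 (1.42 to 2.54). In the other kept cells the log2 ratio was 2.24 for *Bmp2*, 1.89 for *Plat* and 0.64 for *Casp4*, so the first 2 stood at a like ratio outside the members.

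Of the 12 genes with the highest ratio, 4 rose also without the barcodes found in both matrices, the 3 above and *Ccl5*, a chemokine gene, of which 62.2% of the plus TAM UMIs came from 1 member. *Car1*, a carbonic anhydrase gene of the colon surface, had 1007 CPM in plus TAM members and 4.83 CPM in minus TAM members, and 98.1% of the plus TAM sum came from 1 cell. Its log2 ratio was 0.07 without the barcodes found in both matrices, against 7.70 with all members. *Nts*, *Sprr2a3*, *Ifi27l2b* and *Muc3* likewise had over 50% of their plus TAM UMIs in 1 member. *Muc3* and *Phgr1* had log2 ratios of -1.51 and -0.64 without the barcodes found in both matrices, against 1.79 and 1.85 with them.

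Of the 12 genes with the lowest ratio, all 12 fell also without these barcodes, and 9 fell also with the top cell of each gene left out. *Itln1*, an intestinal lectin gene, had 13.7 CPM in plus TAM members and 80.9 CPM in minus TAM members, a log2 ratio of -2.56 (-3.12 to -2.03), and of -1.48 with the top cell left out, since 1 minus TAM member held 56.7% of its UMIs there. *Rnase4*, a secreted ribonuclease gene, had 44.4 and 154 CPM, and *Ugt2b34*, a glucuronidation enzyme gene, 11 and 51.1 CPM. *Atf5*, a stress-response transcription factor gene, had 32.2 and 103 CPM, *Pck2*, the mitochondrial enzyme of phosphoenolpyruvate synthesis, 22.4 and 68.4 CPM, and *Ccnd2*, the cyclin D2 gene, 71.1 and 193 CPM. The log2 ratio in other kept cells was -1.79 for *Atf5*, -1.09 for *Pck2*, -1.07 for *Ccnd2* and -0.46 for *Rnase4*. *Defa30*, *Ifit3* and *Ifit1bl1* had 100%, 99.2% and 100% of their minus TAM UMIs in 1 member.

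S phase genes fell, with 18 of 20 measured lower in plus TAM members (7.41% of all genes were) at a median log2 ratio of -1.36, and 15 lower without the barcodes found in both matrices. *Mcm5*, a subunit of the replicative helicase, had 3.14 CPM in plus TAM members and 29.4 CPM in minus TAM members. The same list had a median of -1.13 in the other kept cells. Of 22 amino acid and integrated stress response genes 11 fell and 1 rose, with *Trib3* at 8.64 and 48.3 CPM, and the list median was -0.55 in members and -0.40 in other kept cells. Of 10 measured Paneth-like and deep crypt secretory genes 7 fell and none rose, and the list median was -1.34 in members and -0.55 in other kept cells. Of 16 colonocyte genes 8 rose and 1 fell with all members. Without the barcodes found in both matrices, where the measured genes can differ, none rose and 9 fell. The direction of that list was therefore not kept.

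**Figure D5:**
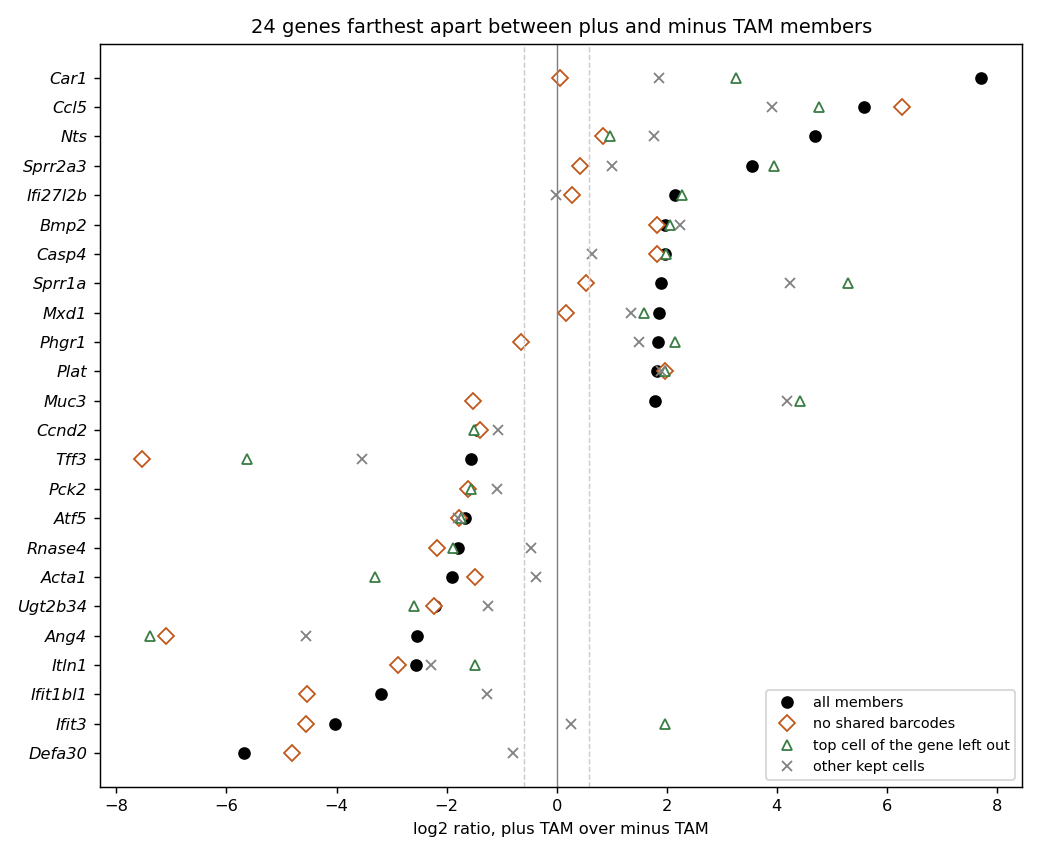
Log2 ratio of plus TAM over minus TAM for the 12 highest and 12 lowest genes within members, with all members (black), without barcodes found in both matrices (diamonds), with the top cell of each gene left out (triangles) and in the other kept cells (crosses). Dashed lines mark 1.5-fold; *Car1* lies at 7.70 with all members and at 0.07 without the shared barcodes, where *Bmp2* and *Plat* lie at 1.82 and 1.96.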

How the data were processed

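Single-cell RNA was captured with the 10x Chromium 3′ protocol (version 2 chemistry), per the labels' protocols. The deposited values are raw UMI counts per gene and barcode. Per the file headers they come from Cell Ranger 3.1.0, and the submitters' processing notes name mm10; no source used here gives the annotation release. The 16 records are parts of 2 libraries, of 38860718 UMIs (plus TAM) and 72223578 UMIs (minus TAM). Of 2078 and 3618 barcodes, 1499 and 2687 were kept, namely those with 1000 or more genes, 2000 or more UMIs and a mitochondrial share up to 20%. Sums of counts were scaled to CPM over all genes. Ratios use no pseudocount, and a sum of 0 took a floor of 3 counts.

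Genes with 10 CPM or more were called at 1.5-fold. Without the barcodes found in both matrices, the genes that reached 10 CPM were chosen anew. With 1 library a group, no test was run. Intervals are exact 95% (Clopper-Pearson or conditional binomial), cover counting error only and take cells or UMIs as independent. Doublets were kept; Scrublet (scanpy 1.11.5) marked 3 plus TAM and 12 minus TAM cells, so an alternative removed the 18 and 58 highest scores. Other alternatives changed the cell filter, the share taken, the score, depth (thinned to 5000 UMIs), thresholds and scaling (TMM of edgeR 4.0.16). Scripts were tested on simulated data. Python 3.11.15, numpy 2.4.6 and scipy 1.17.1 were used. Genes were placed with GENCODE M21, in which 31011 of 31053 identifiers were found. *Igf1* overlaps the antisense gene *Igf1os*, which had no UMI in members.

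The members, gene lists and naming rule were chosen with earlier results of these data known. Named were the rule genes, *N6amt1* and *Trmt112*, the 15 highest and 15 lowest genes in members and the 12 highest and 12 lowest between plus and minus TAM members (50 CPM or more, without predicted, mitochondrial and ribosomal protein genes), and up to 4 genes a list (2 between plus and minus TAM). Leading genes of the sets, neighbouring genes and some further list members were named after their values were seen. A gene that the rule named is not reported here.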

Additional observations from a re-analysis of the deposited data

Results flagged for a closer look

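Several genes stood higher in members than in other kept cells of 1 library and lower in the other. None of these differences was tested, since each group is 1 library. *Car1* had a log2 ratio of members over other cells of 2.34 in the plus TAM library and -3.51 in the minus TAM library. *Sprr1a* had -1.11 and 1.23, *Ifit3* -2.64 and 1.65, *Acta1* -0.78 and 0.74, *Psca* -2.37 and 1.17, *Cdh5* -0.74 and 1.03, and *Avil* 0.79 and -1.01. Most of the *Car1*, *Sprr1a*, *Ifit3* and *Psca* UMIs of the library where the gene stood high came from 1 member (98.1%, 94.7%, 99.2% and 93.8%). With the top cell of each gene left out, these 4 were lower in members in both libraries, at -3.37 and -4.77 for *Car1*, -1.94 and -3.00 for *Sprr1a*, -3.64 and -5.33 for *Ifit3*, and -3.69 and -2.83 for *Psca*.

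For 3 genes the log2 ratio of plus over minus TAM had opposite signs in members and in other kept cells, which was not tested either. It was -0.62 in members and 0.62 in other cells for *Serpinb7*, -0.75 and 0.86 for *Krt14*, and -1.71 and 1.83 for *Psca*. With the top member of each gene left out, the ratio in members was -0.12 for *Serpinb7*, -0.21 for *Krt14* and 0.97 for *Psca*, so the opposite sign was lost for *Psca*. Without the barcodes found in both matrices it was 0.08 for *Serpinb7*, -0.57 for *Krt14* and -3.16 for *Psca*.

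Barcodes that did not pass the cell filter held UMIs of the 8 rule genes, 162 in the plus TAM matrix and 128 in the minus TAM matrix. They stood in 36 of 579 removed plus TAM barcodes and 41 of 931 removed minus TAM barcodes.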

How the results depend on the processing

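No paired analysis was possible because the replicate numbers were given in accession order, and each group is 1 library. The log2 ratio of the member share stayed above 0 in all 15 alternatives. It was 1.503 with cells thinned to 5000 UMIs, 1.33 with the top 3% of cells and 1.20 with the score without *Cd177*, against 0.81, and the cause was not tested. The lowest value was 0.52 (0.12 to 0.92), with the barcodes found in both matrices left out. Taking the top 6% within each library fixes the share, so it gave no value for it. The counts of genes higher and lower in members and higher and lower in plus TAM members (738, 634, 891 and 593) were 265, 208, 231 and 120 at 50 CPM, 2854, 1248, 1934 and 1494 with no CPM minimum, and 324, 306, 284 and 204 at 2-fold, by construction. With cells thinned to 5000 UMIs, 1473 genes were higher and 1292 lower in plus TAM members. Thinning made the sums smaller and also changed the members, of whom 190 of 236 were members as reported, and the cause was not tested. With the top 10% of cells 389 genes were lower in members. All other settings left the counts within 1.5 times. TMM scaling shifted members over other cells by 0.12 in the plus TAM library and 0.05 in the minus TAM library on the log2 scale, and took the share of higher calls to 44.2%, against 53.8%. Leaving out the top cell of each gene, chosen after seeing the data, took it to 41.8%. Members under 5000 UMIs numbered 7 and 3, and thinning left out all cells under this depth. Depth limits statements on genes below 10 CPM.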
